A study of Mus musculus with 18 samples.

Results

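The genes described here are Gpnmb, Spp1, Lgals1, Lgals3, Lgals8, Lgals9 and Cd9, taken by symbol from the count table, which makes 7 of its 16314 gene rows. All 7 passed the filter on low counts that left 12021 genes for testing. They were measured by bulk RNA-seq in bone marrow-derived macrophages (BMDMs), which are macrophages grown in culture from bone marrow cells under M-CSF, here 50 ng/ml for 7 days. The cells came from the femora of Prep-/- mice, which lack prolyl endopeptidase (PREP), and of their Prep+/- littermates, both on a C57BL6/J background, so the controls carried 1 intact Prep allele and no wild-type group entered these comparisons. How the null allele was made and the age of these mice are not given in the sources used here. BMDMs of each genotype were left unstimulated (M0), given LPS at 50 ng/ml (M1), or given IL-4 together with IL-13, each at 20 ng/ml (M2), for 24 h, with 3 libraries in each of the 6 groups. The study calls them biological replicates, but the labels tie no library to an animal, so p-values measure the spread between these libraries.

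Gpnmb and Spp1 mark the foamy, lipid-laden macrophages that collect in fatty liver, plaques and fibrotic tissue, and Cd9 and Lgals3 are usually listed with them. Gpnmb encodes a transmembrane glycoprotein of phagosomes and the cell surface, and Spp1 encodes osteopontin, a secreted matrix protein that binds integrins and CD44. Galectins are cytosolic proteins that also leave the cell by an unconventional route and bind beta-galactoside sugars on glycoproteins: galectin-1 and galectin-3 act at the surface and in the matrix, galectin-3 and galectin-8 also gather on damaged endosomes and lysosomes, and galectin-9 is a ligand of the receptor TIM-3. Cd9 encodes a tetraspanin that organizes membrane proteins and takes part in cell fusion and exosome formation.

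The libraries held 19068237 to 22598279 counts each, and 13096 to 13807 genes were detected. Prep itself, the targeted gene, was lower in Prep-/- BMDMs by log2 fold changes of -4.29, -3.74 and -3.77 in M0, M1 and M2, with no overlap between the genotypes. The 7 macrophage markers summed to at least 9958 CPM (counts scaled to a common library total) in every library, Csf1r and Cd68 among them. Most of this sum was Lyz2, and it differed between genotypes. In M0 it was 18733 to 22167 CPM in Prep+/- and 29989 to 47592 CPM in Prep-/- libraries, with Csf1r at means of 1208 and 3173 CPM. In M1 it was 44529 to 45873 against 30443 to 36405 CPM, and in M2 9958 to 12160 against 13817 to 19505 CPM. Of the 18 libraries, 3 stood apart from their group and touch the results that follow. Prep-/- M0 replicate 3 held 256 counts of the liver gene Alb, against at most 2 in any other library, its 6 epithelial and hepatocyte markers summed to 13.6 CPM against at most 0.15 CPM elsewhere, its 7 fibroblast and stromal markers to 0.461 CPM against 13.3 and 16.9 CPM in its 2 group mates, and its mean correlation with those mates was 0.973. Prep-/- M2 replicate 3 had the lowest mean correlation with its group, 0.968, and the fusion genes Dcstamp and Ocstamp stood at 183 and 124 CPM in it, against 11.5 to 16.8 CPM and 4.50 to 7.09 CPM in its mates. Prep+/- M2 replicate 3 held the stromal markers at 16.0 CPM against 0.639 and 0.797 CPM in its mates, Dcstamp at 30.7 CPM against 6.31 and 6.84 CPM, and Ocstamp at 30.9 CPM against 6.73 and 7.97 CPM, while its mean correlation with them was 0.990. The part of these features in the results was not tested. Values without these libraries are given for the main changes of a call, a direction or a size, and not for every value.

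All 7 genes are protein-coding and lie on 6 chromosomes of GRCm39. Gpnmb spans chr6:49013426-49047863 and Cd9 spans chr6:125437210-125471778, Spp1 lies at chr5:104582165-104589235, Lgals1 at chr15:78810875-78814670, Lgals3 at chr14:47605208-47623624, Lgals8 at chr13:12454282-12479840 and Lgals9 at chr11:78853800-78875798. Counts of some of them carry an uncertainty from neighbours and copies, since the strand setting and the treatment of multiply mapped reads are not given in the sources used here. Lgals8 overlaps Heatr1 on the opposite strand, Gpnmb and Lgals1 each overlap a long non-coding RNA gene on the opposite strand, and Spp1 and Cd9 each have 1 annotated gene on their own strand. Cd9 transcripts matched those of the pseudogene Cd9-ps at 90.6% identity over 669 bases, and Lgals8 transcripts matched Gm6149 at 90.3% over 486 bases. Cd9 also matched transcripts of many other genes over shorter stretches, such as Gm26728 (100% over 242 bases) and Csf1r (94.0% over 183 bases).

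Sequence before the RefSeq transcription start was read for 6 of the 7 genes from RefSeq promoters, each 250 bases long, and placed on GRCm39 by an exact match that was unique. These starts are not the outer ends of the annotated genes. The Spp1, Lgals3 and Lgals8 promoters lie inside the gene spans given above, and those of Gpnmb, Lgals9 and Cd9 reach into theirs. A set of 8 spellings of motifs of factors that act in stimulated macrophages were searched on both strands. The interferon-stimulated response element (ISRE), spelled as GAAA, any 2 bases and GAAA, was found in the promoters of Lgals9 and Spp1 and in 2.98% of the 32851 promoters searched. The STAT6 spelling, TTC, any 4 bases and GAA, was found at 2 places in the Lgals3 promoter, 238 and 225 bases before the start at their first base, and in 5.85% of all promoters. An Lgals3 promoter also held an NF-kB spelling of GGGAA, any 2 bases and TCC (1.09% of all promoters), and the first Spp1 promoter held the PU.1 spelling GAGGAAGT (2.44%). No match was seen for the E-box CACGTG (6.02%), the AP-1 spelling TGANTCA (6.75%) or the NF-kB spelling GGGANTTCC (1.43%), nor for the consensus kappa-B site of 10 fixed bases (0.14%), and matches of different spellings did not overlap. The Lgals9 stretch is shown because this gene had the steepest change with LPS, and the Lgals3 stretch because this gene reached the highest level in M2. Both are written 5′ to 3′ on the strand of the gene, with the motif match in capitals (for Lgals9 the reverse complement of the ISRE spelling), and a match says only that these letters are there.
Lgals9, chr11:78875796-78876000, minus strand, up to the end of the ISRE match: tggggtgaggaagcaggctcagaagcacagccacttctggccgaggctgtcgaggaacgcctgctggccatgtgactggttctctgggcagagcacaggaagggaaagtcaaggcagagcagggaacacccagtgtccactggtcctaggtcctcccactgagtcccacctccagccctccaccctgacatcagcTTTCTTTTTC
Lgals3, chr14:47611079-47611101, plus strand, the pair of STAT6 matches: TTCTGCGGAAggcTTCAGGTGAA

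Levels are given as normalized counts, which are counts divided by the library's effective size (its total times the TMM factor) and set to the mean effective size. The genes ran from some of the most abundant transcripts of these cells to moderately expressed ones. By mean CPM, Lgals3 ranked 5 among all genes in Prep+/- M2 and Gpnmb ranked 9 in Prep-/- M2, while Lgals8 ranked between 876 and 2365 across the groups. Compared with each other as normalized counts per kb of exon, with the exons of all annotated transcripts merged, Spp1 was the highest of the 7 in Prep+/- M0 at 34694, Lgals1 was highest in Prep+/- M1 at 21915, and Lgals3 was highest in the 4 other groups, at 24480 to 97182. Lgals8 was the lowest per kb in all groups but Prep-/- M1, where Cd9 was lower, at 642 against 821. Between its lowest and its highest group mean, Cd9 varied most, 13.0-fold, followed by Lgals9 (8.59-fold), Lgals3 (5.10-fold), Spp1 (4.43-fold), Gpnmb (2.93-fold), Lgals8 (2.84-fold) and Lgals1 (2.24-fold). The order of the 6 groups was the same with DESeq2's size factors for each of the 7 genes.

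**Figure D1:**
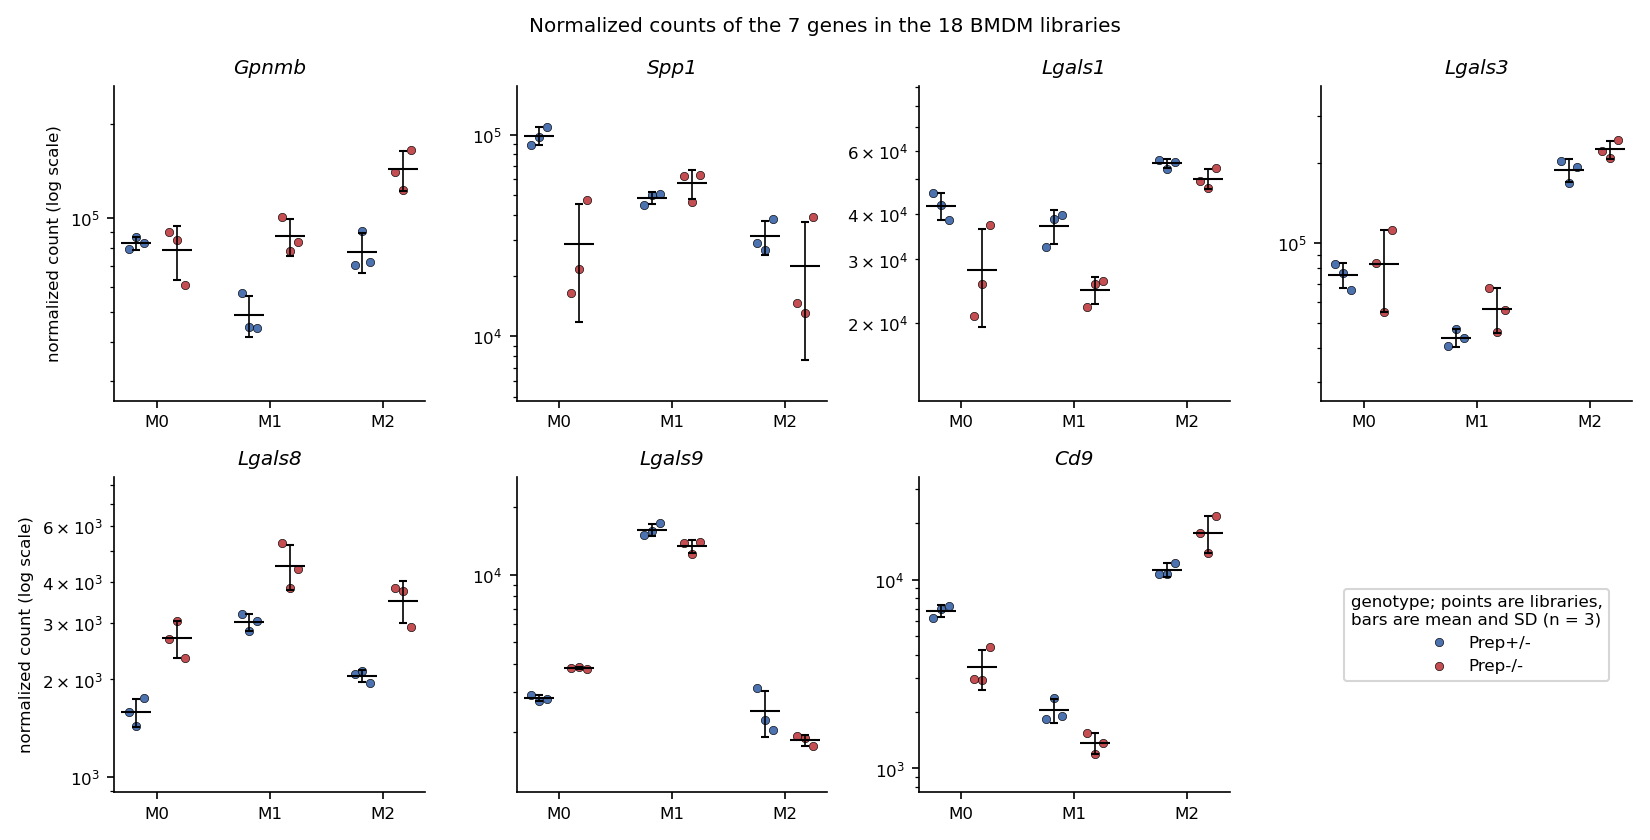
Normalized counts (log axis) of the 7 genes in M0, M1 and M2 BMDMs, with 1 point per library, blue for Prep+/- and red for Prep-/-, and bars for the mean and SD of 3 libraries. Gpnmb libraries separate by genotype in M1 and M2 and not in M0, and 1 of the 3 Prep-/- libraries is high for Spp1 in M0 and in M2.

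Prep knockout moved between 2 and 4 of the 7 genes in each state. In M0, Lgals8 rose and Spp1, Lgals1 and Cd9 fell, which was 4 of 7 genes past the test, where 32.6% of all genes were. In M1, Gpnmb rose and Lgals1 fell, 2 of 7 genes against 22.5% of all genes. In M2, Gpnmb, Lgals8 and Cd9 rose and 0 fell, 3 of 7 genes against 16.2% of all genes. By direction, 15.4% of all genes rose and 17.2% fell in M0, 12.3% rose and 10.2% fell in M1, and 6.37% rose and 9.82% fell in M2. At an unadjusted p under 0.05 edgeR gave 1 lower gene in M2, Lgals9, whose change stayed under the fold limit, and DESeq2 called 0. Without Prep-/- M2 replicate 3, edgeR called 2 genes higher, Gpnmb and Lgals8, and 1 lower, Spp1. Without Prep+/- M2 replicate 3 it called 3 higher and 0 lower. The test was edgeR's quasi-likelihood test fitted to all 18 libraries, with p-values adjusted by Benjamini-Hochberg over the 12021 genes, and a gene passed the test where that p was below 0.05 and its fold change exceeded 1.5. The libraries of the 2 genotypes did not overlap for 5 of the 7 genes in each state, where 52.6%, 56.9% and 42.1% of all genes did not overlap in M0, M1 and M2. The 3 comparisons use separate libraries, but the M0 libraries recur in every stimulation effect below.

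**Figure D2:**
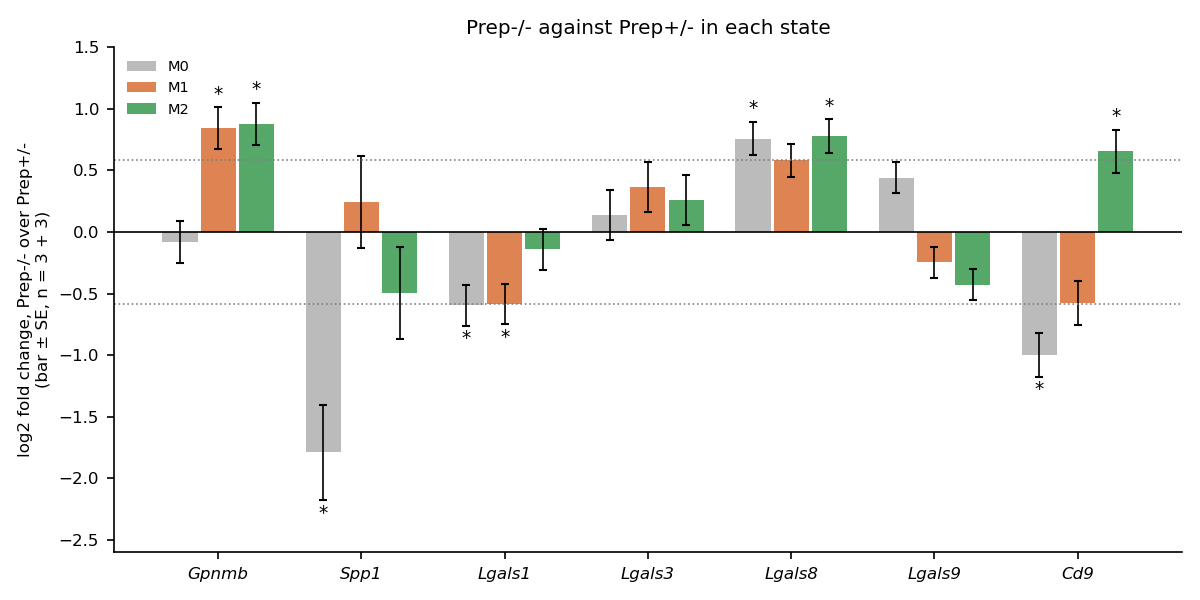
Log2 fold change of Prep-/- over Prep+/- BMDMs for each gene in M0, M1 and M2 (bars, with SE from the fit, 3 libraries per group), with dotted lines at a fold change of 1.5 and asterisks on changes past the test. Spp1 in M0 has the longest bar at -1.79, and Cd9 points down in M0 and up in M2.

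Stimulation moved between 3 and 6 of the genes. LPS raised Lgals8 and Lgals9 and lowered Gpnmb, Spp1, Lgals3 and Cd9 in Prep+/- BMDMs, 6 of 7 genes against 37.7% of all genes. In Prep-/- BMDMs it raised Spp1, Lgals8 and Lgals9 and lowered Cd9, 4 of 7 against 42.0%. IL-4 and IL-13 raised Lgals3 and Cd9 and lowered Spp1 in Prep+/- BMDMs, 3 of 7 against 12.9%, and in Prep-/- BMDMs they raised Gpnmb, Lgals1, Lgals3 and Cd9 and lowered Lgals9, 5 of 7 against 30.2%. The difference between the stimulation effects of the 2 genotypes, tested as an interaction, passed for Gpnmb, Spp1 and Lgals9 with LPS, 3 of 7 genes against 21.1% of all genes. With IL-4 and IL-13 it passed for Gpnmb, Lgals9 and Cd9, again 3 of 7, against 8.66% of all genes. In bulk RNA, a smaller number of cells with a transcript cannot be told apart from less of that transcript per cell.

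**Figure D3:**
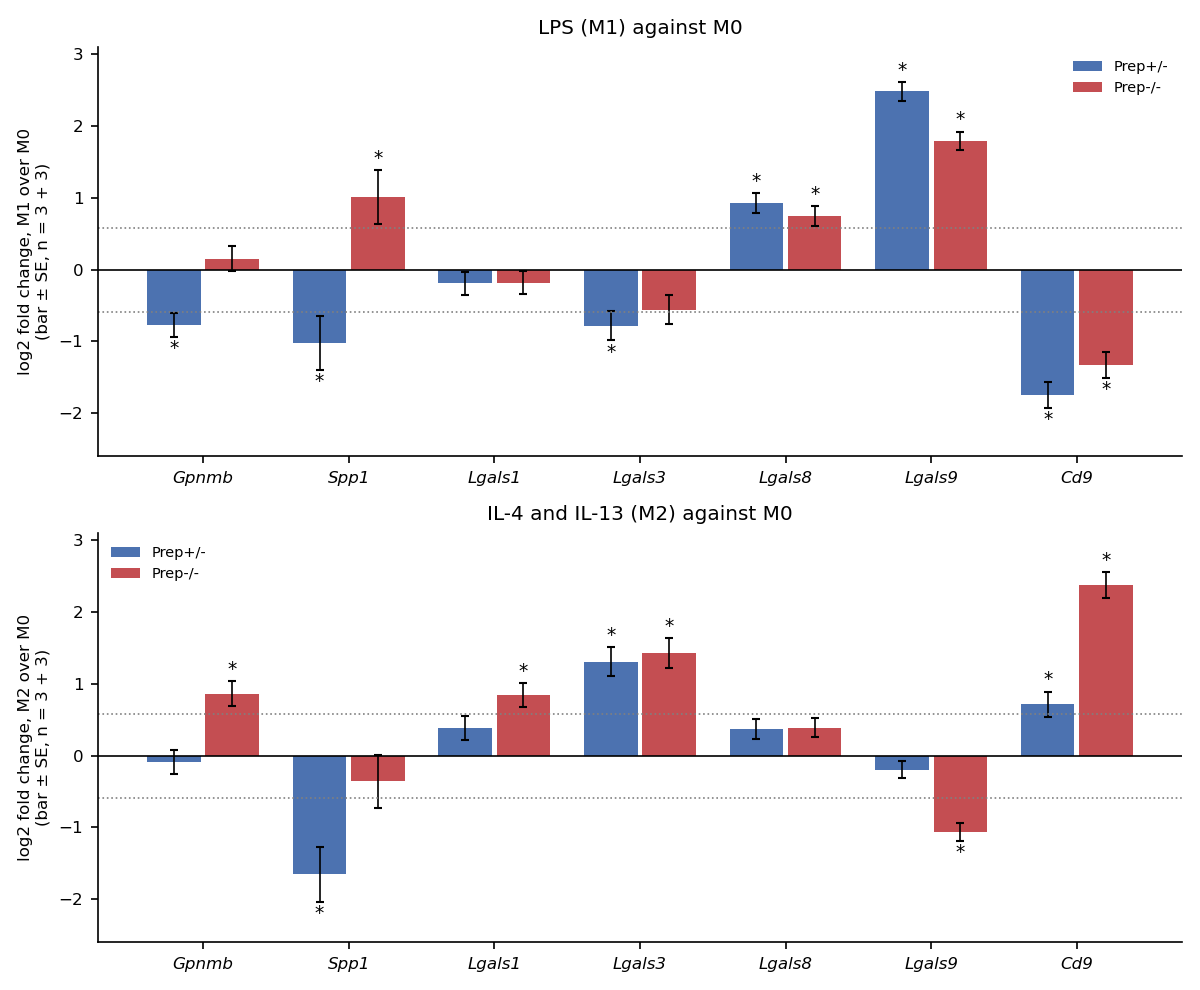
Log2 fold change of M1 over M0 (upper panel) and of M2 over M0 (lower panel) for each gene in Prep+/- (blue) and Prep-/- (red) BMDMs, as bars with SE from the fit and 3 libraries per group, dotted lines at a fold change of 1.5 and asterisks on changes past the test. Spp1 points down with LPS in Prep+/- and up in Prep-/- BMDMs, and the Cd9 bar with IL-4 and IL-13 is 2.37 in Prep-/- against 0.72 in Prep+/- BMDMs.

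Gpnmb was not separated by genotype at rest and was higher in Prep-/- BMDMs once they were stimulated. In M0, the Prep+/- libraries stood at 79131, 87028 and 82944 normalized counts and the Prep-/- libraries at 90056, 84606 and 60966. These overlap, and the log2 fold change was -0.08 (SE 0.17, adjusted p = 0.72 by edgeR), or 0.06 (adjusted p = 0.768) without Prep-/- M0 replicate 3. In M1, the Prep+/- libraries stood at 57280, 44754 and 44279 and the Prep-/- libraries at 100563, 77939 and 83605. Every Prep-/- library was above every Prep+/- one, by a log2 fold change of 0.84 (SE 0.17, adjusted p = 0.00162). In M2, Prep+/- libraries held 70773, 90856 and 71956 and Prep-/- libraries 140495, 122861 and 165183. Again the groups did not overlap, and the log2 fold change was 0.88 (SE 0.17, adjusted p = 0.00134).

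Across states, LPS lowered Gpnmb in Prep+/- BMDMs by a log2 fold change of -0.77 (SE 0.17, adjusted p = 0.00117), from 83035 ± 3949 to 48771 ± 7373 normalized counts (SD, n = 3). In Prep-/- BMDMs the change with LPS was 0.15 (SE 0.17, adjusted p = 0.456), or -0.03 (adjusted p = 0.883) without Prep-/- M0 replicate 3, and the interaction was 0.92 (SE 0.24, adjusted p = 0.0111). IL-4 and IL-13 raised Gpnmb in Prep-/- BMDMs by 0.86 (SE 0.17, adjusted p = 6.34e-04), whereas the change in Prep+/- BMDMs was -0.09 (SE 0.17, adjusted p = 0.753). The interaction of 0.96 (SE 0.24, adjusted p = 0.0207) missed the threshold without Prep+/- M0 replicate 2 (adjusted p = 0.0561) and without Prep+/- M2 replicate 1 (adjusted p = 0.0567). Without replicate 3 of both Prep-/- groups, the change in Prep-/- BMDMs was 0.59 (SE 0.16, adjusted p = 0.00678), just over the fold limit. The interaction was then 0.71 (SE 0.20, adjusted p = 0.0345). In the order of the 6 groups, Prep+/- M1 was lowest and Prep-/- M2 highest, and each was apart from its neighbour with no overlap (adjusted p of 0.00318 and 0.0022). Among the 4 groups between them, with means from 77862 to 87369, neighbours did not differ beyond their spread.

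Spp1 was the gene with the largest knockout effect at rest. In M0, the Prep+/- libraries held 88939, 97920 and 109045 normalized counts of the osteopontin transcript and the Prep-/- libraries 16357, 21624 and 47714. All Prep-/- libraries were lower, with replicate 3, the library with Alb counts, well above its mates, and the log2 fold change was -1.79 (SE 0.39, adjusted p = 0.00123) with that library and -2.38 (SE 0.37, adjusted p = 9.71e-05) without it. In M1, Prep+/- libraries held 44603, 50120 and 51024 and Prep-/- libraries 62757, 46350 and 63360. They overlap, and the log2 fold change of 0.24 (SE 0.37, adjusted p = 0.635) did not pass. In M2, Prep+/- libraries held 29128, 26870 and 38208 and Prep-/- libraries 14675, 13020 and 39106. Replicate 3 of Prep-/- M2, which also had the high Dcstamp and Ocstamp levels, was above all Prep+/- libraries while its 2 mates were below all of them. The log2 fold change was -0.50 (SE 0.38, adjusted p = 0.365) with that library and -1.17 (SE 0.33, adjusted p = 0.0127) without it.

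Both stimuli lowered Spp1 in Prep+/- BMDMs, LPS by -1.02 (SE 0.38, adjusted p = 0.0321) and IL-4 with IL-13 by -1.65 (SE 0.38, adjusted p = 0.00582) on the log2 scale. In Prep-/- BMDMs, LPS raised it by 1.01 (SE 0.38, adjusted p = 0.0314), although Prep-/- M0 replicate 3 lay above 1 of the M1 libraries. Both of the LPS calls were lost without some single libraries. In Prep+/- BMDMs the call held without M0 replicate 1 (-1.12, adjusted p = 0.0425). Its adjusted p was over 0.05 without M0 replicate 2 (0.0635) or 3 (0.0862) and without M1 replicate 1 (0.0799), 2 (0.0626) or 3 (0.0612). The Prep+/- change itself stayed between -1.12 and -0.93 in these fits. With only the libraries compared, it was -1.01 (SE 0.11, adjusted p = 2.74e-05 by edgeR). It also passed there with the replicate number as a block (-1.01, adjusted p = 3.38e-04). In Prep-/- BMDMs the call held without M1 replicate 2 (1.09, adjusted p = 0.0416) and grew to 1.56 (adjusted p = 0.00158) without M0 replicate 3, the library with Alb counts, and the adjusted p was over 0.05 without M0 replicate 1 (0.129) or 2 (0.132) and without M1 replicate 1 (0.0971) or 3 (0.0985), and at 0.061 with only the libraries compared. The interaction with LPS, 2.03 (SE 0.54, adjusted p = 0.0118), passed with each library left out in turn and was 2.62 (adjusted p = 0.00105) without Prep-/- M0 replicate 3. With IL-4 and IL-13, the Prep-/- change was -0.36 (SE 0.38, adjusted p = 0.462), and -1.07 (adjusted p = 0.0175) without Prep-/- M2 replicate 3. It was 0.21 (adjusted p = 0.635) without Prep-/- M0 replicate 3, so that its sign turned, and -0.46 (adjusted p = 0.0637) without both. The interaction with IL-4 and IL-13 was 1.29 (SE 0.53, adjusted p = 0.137) with all libraries and 0.61 (adjusted p = 0.449) without Prep-/- M2 replicate 3, but 1.89 (SE 0.46, adjusted p = 0.0174) without Prep-/- M0 replicate 3 and 1.22 (SE 0.24, adjusted p = 0.00473) without replicate 3 of both Prep-/- groups. No neighbouring pair in the order of the 6 groups, from 22267 ± 14606 in Prep-/- M2 to 98635 ± 10072 in Prep+/- M0, differed past an adjusted p of 0.05.

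Lgals1, the gene of galectin-1, was lower in Prep-/- BMDMs in M0 and M1, and its difference in M2 did not pass. In M0, Prep+/- libraries held 45832, 42406 and 38648 normalized counts and Prep-/- libraries 20859, 25686 and 37404. The highest Prep-/- value, in replicate 3, came close to the lowest Prep+/- value, and the log2 fold change was -0.60 (SE 0.16, adjusted p = 0.00703), or -0.87 (adjusted p = 8.35e-05) without that library. In M1, Prep+/- libraries held 32511, 38858 and 39806 and Prep-/- libraries 22207, 25639 and 26215. These did not overlap, with a log2 fold change of -0.59 (SE 0.16, adjusted p = 0.0119). In M2, Prep+/- libraries held 56669, 53567 and 55901 and Prep-/- libraries 49499, 47455 and 53680, a log2 fold change of -0.14 (SE 0.16, adjusted p = 0.573). Both calls were close to the limits. The M0 change fell under the fold limit without Prep+/- M0 replicate 1 (-0.52) or Prep-/- M0 replicate 1 (-0.42) or 2 (-0.53), and with only the libraries compared its adjusted p was 0.0781 at -0.59. The M1 change missed both limits without Prep+/- M1 replicate 2 (-0.56, adjusted p = 0.0517) or 3 (-0.54, adjusted p = 0.0529) or Prep-/- M1 replicate 1 (-0.53, adjusted p = 0.0681). LPS did not move Lgals1 past the test in Prep+/- (-0.19, SE 0.16) or Prep-/- BMDMs (-0.18, SE 0.16, or 0.05 without Prep-/- M0 replicate 3). IL-4 and IL-13 raised it in Prep-/- BMDMs by 0.84 (SE 0.17, adjusted p = 5.98e-04), or 1.10 (adjusted p = 1.02e-05) without Prep-/- M0 replicate 3. The change in Prep+/- BMDMs was 0.39 (SE 0.16, adjusted p = 0.118). The difference between those 2 effects passed only with Prep-/- M0 replicate 3 left out, alone (0.73, adjusted p = 0.0151) or with Prep-/- M2 replicate 3 (0.69, adjusted p = 0.0189).

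Lgals3 changed with the stimulus, and its knockout effect passed the test in no state. In M0, Prep+/- libraries held 83045, 77078 and 66549 normalized counts and Prep-/- libraries 83430, 54683 and 111079. In M1, Prep+/- libraries held 40682, 47301 and 43768 and Prep-/- libraries 67488, 46054 and 55810. The genotypes overlap in both states, with log2 fold changes of 0.14 (SE 0.20, adjusted p = 0.601) and 0.36 (SE 0.20, adjusted p = 0.167). The first of them was -0.14 (adjusted p = 0.532) without Prep-/- M0 replicate 3. In M2, Prep+/- libraries held 202727, 166872 and 192692 and Prep-/- libraries 221743, 208112 and 242454. All M2 libraries were above all M0 and M1 libraries, and the Prep-/- ones lay above the Prep+/- ones by only 0.26 (SE 0.20, adjusted p = 0.379). IL-4 and IL-13 raised this lectin gene by 1.31 (SE 0.20, adjusted p = 2.02e-04) in Prep+/- and 1.43 (SE 0.20, adjusted p = 3.4e-05) in Prep-/- BMDMs. LPS lowered it by -0.78 (SE 0.20, adjusted p = 0.00376) in Prep+/- BMDMs, and the Prep-/- value of -0.56 (SE 0.20, adjusted p = 0.0263) lay under the fold limit, past which it went without Prep-/- M0 replicate 2 (-0.83) or Prep-/- M1 replicate 1 (-0.75). Without Prep-/- M0 replicate 3 it was -0.32 (adjusted p = 0.145), and without Prep-/- M0 replicate 1 or Prep-/- M1 replicate 2 or 3 its adjusted p lay between 0.0505 and 0.0916. Neither interaction passed for Lgals3.

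Lgals8, which encodes a galectin with tandem sugar-binding domains that marks damaged vesicles for autophagy, was higher in every Prep-/- group. In M0, Prep+/- libraries held 1580, 1432 and 1747 normalized counts and Prep-/- libraries 2666, 3043 and 2331. In M1, they held 3181, 2826 and 3037 against 5283, 3842 and 4389. In M2, they held 2076, 2118 and 1952 against 3846, 3770 and 2919. Within each state the lowest Prep-/- library exceeded the highest Prep+/- library. The log2 fold change was 0.76 (SE 0.14, adjusted p = 2.81e-04) in M0 and 0.78 (SE 0.14, adjusted p = 5.73e-04) in M2. In M1 it was 0.58 (SE 0.14, adjusted p = 0.00404), just under the fold limit, and it passed that limit without Prep+/- M1 replicate 1 (0.60) or Prep-/- M1 replicate 2 (0.67) or 3 (0.59), and was 0.44 (adjusted p = 0.0357) without Prep-/- M1 replicate 1, the highest library. LPS raised Lgals8 by 0.93 (SE 0.14, adjusted p = 2.58e-05) in Prep+/- and 0.75 (SE 0.14, adjusted p = 1.81e-04) in Prep-/- BMDMs, the second falling under the fold limit, at 0.57, without Prep-/- M1 replicate 1. The changes with IL-4 and IL-13 were 0.37 (SE 0.14, adjusted p = 0.0703) and 0.39 (SE 0.14, adjusted p = 0.0273) and reached no call. Neither interaction passed.

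Lgals9 had the largest change with LPS of the 7 genes. Prep+/- libraries held 2922, 2754 and 2811 normalized counts in M0 and 14972, 15632 and 16857 in M1. Prep-/- libraries held 3862, 3867 and 3790 in M0 and 13737, 12329 and 13902 in M1. Thus Prep-/- BMDMs began above the controls and ended below them, with no overlap between genotypes in either state. LPS raised the gene by 2.48 (SE 0.13, adjusted p = 4.56e-10) in Prep+/- and by 1.79 (SE 0.13, adjusted p = 9.9e-09) in Prep-/- BMDMs, and the interaction was -0.69 (SE 0.18, adjusted p = 0.00987). In M2, Prep+/- libraries held 3119, 2258 and 2047 and Prep-/- libraries 1915, 1884 and 1724. All Prep-/- libraries were the lower ones here. The log2 fold change with IL-4 and IL-13 was -1.06 (SE 0.13, adjusted p = 4.97e-06) in Prep-/- BMDMs, against -0.19 (SE 0.12, adjusted p = 0.319) in Prep+/- BMDMs, with an interaction of -0.87 (SE 0.18, adjusted p = 0.00722). The knockout effects themselves stayed under the fold limit: 0.44 (SE 0.12, adjusted p = 0.00803) in M0, -0.25 (SE 0.12, adjusted p = 0.126) in M1 and -0.43 (SE 0.12, adjusted p = 0.0198) in M2. Without Prep+/- M2 replicate 1, the highest of its group, the M2 difference was -0.22 (adjusted p = 0.172) and the change with IL-4 and IL-13 in Prep+/- BMDMs was -0.42 (adjusted p = 0.015). Without Prep-/- M2 replicate 3 the M2 difference was -0.37 (adjusted p = 0.0542).

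Cd9 had the widest range, and its knockout effect turned from M0 to M2. In M0, Prep+/- libraries held 6259, 7020 and 7235 normalized counts of this tetraspanin and Prep-/- libraries 2962, 2937 and 4370. Every Prep-/- library was lower, by a log2 fold change of -0.998 (SE 0.18, adjusted p = 2.41e-04), or -1.22 (adjusted p = 3.68e-05) without Prep-/- M0 replicate 3. In M1, Prep+/- libraries held 1833, 2373 and 1905 and Prep-/- libraries 1534, 1196 and 1361. The groups did not overlap, and the log2 fold change of -0.58 (SE 0.18, adjusted p = 0.0182) lay just under the fold limit, which it passed with DESeq2 (-0.61, adjusted p = 0.00485) and with DESeq2's size factors (-0.61). Its adjusted p was over 0.05 without Prep+/- M1 replicate 2 (-0.46, 0.0989) or Prep-/- M1 replicate 2 (-0.50, 0.0729). In M2, Prep+/- libraries held 10721, 10723 and 12303 and Prep-/- libraries 17640, 13836 and 21671. Now every Prep-/- library was higher, by 0.66 (SE 0.17, adjusted p = 0.0117). That last call was lost without Prep+/- M2 replicate 1 (adjusted p = 0.0512) or 2 (adjusted p = 0.0573), and without Prep-/- M2 replicate 3, where the change was 0.50 (adjusted p = 0.0441).

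The effect of IL-4 and IL-13 on Cd9 was 0.72 (SE 0.17, adjusted p = 0.0079) in Prep+/- and 2.37 (SE 0.18, adjusted p = 3.96e-08) in Prep-/- BMDMs. The first missed the threshold without Prep+/- M2 replicate 3, the library with high stromal and fusion markers (0.63, adjusted p = 0.0502). The interaction was 1.65 (SE 0.25, adjusted p = 0.00105), and 1.72 (SE 0.20, adjusted p = 6.23e-05) without replicate 3 of both Prep-/- groups. LPS lowered Cd9 in both genotypes, by -1.75 (SE 0.18, adjusted p = 5.04e-07) in Prep+/- and -1.33 (SE 0.18, adjusted p = 9.43e-06) in Prep-/- BMDMs. The difference between these was 0.42 (SE 0.25, adjusted p = 0.228), and 0.63 (adjusted p = 0.0475) without Prep-/- M0 replicate 3. In the order Prep-/- M1, Prep+/- M1, Prep-/- M0, Prep+/- M0, Prep+/- M2 and Prep-/- M2, each of the 5 neighbouring pairs was apart with no overlap, at adjusted p of 0.0182 at most. The osteoclast and fusion markers moved with this gene in M2: the 7 of them summed to 408 to 509 CPM in Prep+/- M2 and 789 to 1390 CPM in Prep-/- M2 libraries, most of it Atp6v0d2, while Calcr was at 0 in both M2 groups and Oscar at a mean of 0.049 CPM or less. In M0, where Cd9 was lower in Prep-/- BMDMs, they summed to 22.4 to 35.9 CPM in Prep+/- and 31.6 to 71.6 CPM in Prep-/- libraries. In M1 these markers summed to 76.2 to 94.9 CPM in Prep+/- and 58.4 to 66.3 CPM in Prep-/- libraries. Their part in the Cd9 result was not tested.

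Set against each other, the galectins stood in different proportions in the 3 states. Of the summed normalized counts per kb of the 4 galectin genes, Lgals3 took 55.2% ± 0.88 in Prep+/- M0 and 65.2% ± 6.98 in Prep-/- M0 (SD, n = 3). In M2 it took 70.3% ± 1.46 and 75.7% ± 0.39, and in M1 39.3% ± 1.504 and 53.2% ± 5.53. Lgals1 had the largest share in Prep+/- M1, at 45.1% ± 1.48, and 32.2% ± 5.17 in Prep-/- M1. Lgals9 took 2.11% ± 0.18 in Prep+/- M0, 14.4% ± 0.77 in Prep+/- M1 and 12.8% ± 0.52 in Prep-/- M1, and it was at 0.64% ± 0.08 in Prep-/- M2. Lgals8 stayed at 1.79% or below in all groups. These shares depend on the merged exon lengths and were not tested.

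**Figure D4:**
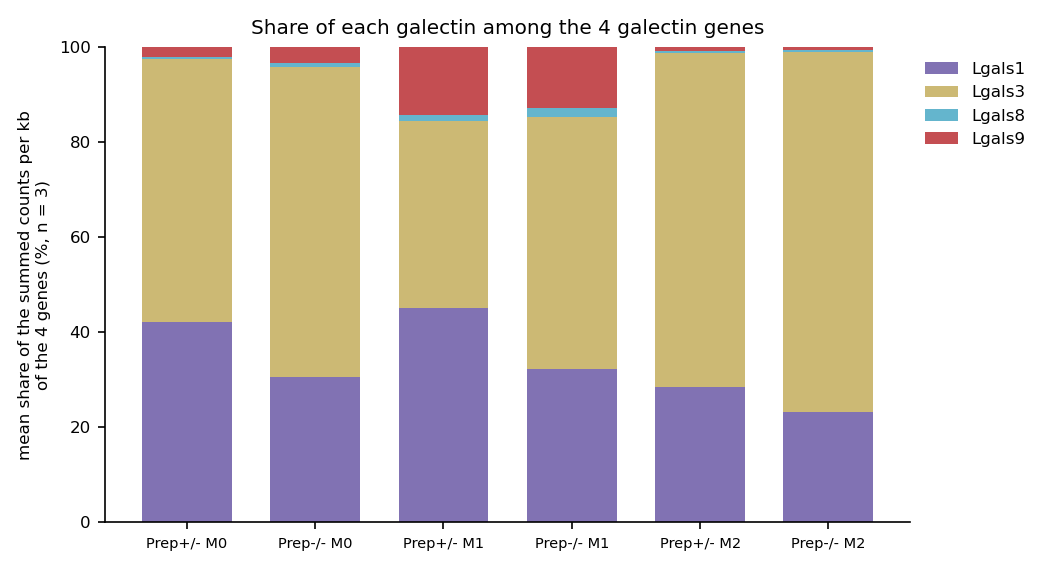
Mean share (%) of Lgals1, Lgals3, Lgals8 and Lgals9 in the summed normalized counts per kb of exon of the 4 genes, in each of the 6 groups (n = 3 libraries). Lgals3 takes the largest part in all groups but Prep+/- M1, and Lgals9 is visible mainly in M1.

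Genes that work with these 7 were described in 6 lists by counts, with a median beside that of all genes tested, which for the knockout effect was 0.02 (M0), 0.04 (M1) and 0.03 (M2). Past the test were 32.6% of all genes in M0, 22.5% in M1 and 16.2% in M2. Of the 17 galectin ligands and glycan-modifying enzymes, 16 were tested. In M0, 3 were higher and 4 lower in Prep-/- BMDMs (median 0.03), in M1 2 and 3 (-0.03), and in M2 2 and 1 (0.09), or 3 and 2 without Prep-/- M2 replicate 3. Without Prep-/- M0 replicate 3, 3 were lower in M0, and without Prep+/- M2 replicate 3, 3 were higher in M2. With all libraries, 43.8% of the tested genes were called in M0, 31.2% in M1 and 18.8% in M2. Havcr2, which encodes TIM-3, the receptor of galectin-9, fell in all 3 states, by -1.32 (SE 0.18, adjusted p = 2.22e-05) in M0, -1.18 (SE 0.18, adjusted p = 2.72e-04) in M1 and -1.09 (SE 0.18, adjusted p = 3.59e-04) in M2. Trim17, the largest rise in M0, was 2.72 higher (SE 0.37, adjusted p = 2.43e-05), Mgat4b, an N-glycan branching enzyme, 0.63 higher in M1 (SE 0.13, adjusted p = 0.00225), and Lamp1, a heavily glycosylated lysosomal membrane protein, 0.73 higher in M2 (SE 0.12, adjusted p = 4.46e-04). Of the 8 other galectins and galectin-like genes, 3 were tested, of which 1 was lower in M0, Lgalsl at -1.90 (named after its values were seen), with a list median of 0.26. That 1 gene is 33.3% of those tested, against 32.6% of all genes. By edgeR 0 were called in M1 (median 0.02) and in M2 (median -0.08), and at an unadjusted p under 0.05 the counts were 0 and 1, as they were by DESeq2. Without Prep-/- M0 or M2 replicate 3, 2 of the 3 were called in M0 and 1 in M2. Lgals3bp, a secreted partner of galectin-3, did not pass in any state, at 0.52, -0.02 and 0.22.

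Osteopontin binds CD44 and several integrins. Of the 13 receptor and related matrix genes, 9 were tested, and 2 were higher and 4 lower in M0 (median -0.06). The counts were 0 higher and 2 lower in M1 (-0.28), then 0 higher and 1 lower in M2 (-0.23). Together these were 66.7% of the tested genes in M0, 22.2% in M1 and 11.1% in M2, against 32.6%, 22.5% and 16.2% of all genes. For the 2 counts of 0 higher genes by edgeR, an unadjusted p under 0.05 gave 1 in M1 and 2 in M2 and DESeq2 called 0 in both. Without Prep-/- M2 replicate 3, the lower genes in M2 were 3. In M0, where Spp1 was lower, the alpha subunit Itgav fell by -1.11 (SE 0.23, adjusted p = 8.36e-04) and Itga8 by -3.07 (SE 0.38, adjusted p = 1.2e-05), whereas Itga4 rose by 1.04 (SE 0.17, adjusted p = 1.48e-04) and Itgb3 by 0.65 (SE 0.18, adjusted p = 0.00768). Itga8 fell in M1 too, by -1.02 (SE 0.37, adjusted p = 0.041). Cd44 fell in M1 by -0.88 (SE 0.19, adjusted p = 0.00214), with values of -0.06 in M0 and -0.32 in M2 that did not pass.

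Of the 13 relatives and partners of Gpnmb, which include the MiT/TFE factors that switch on lysosomal genes, 11 were tested. In M0, 4 were higher and 1 lower (median 0.33), in M1 2 and 1 (0.04), and in M2 2 and 0 (0.52). For the latter count of 0 by edgeR, an unadjusted p under 0.05 gave 1 gene and DESeq2 called 0. The shares called were 45.5% in M0, 27.3% in M1 and 18.2% in M2, against 32.6%, 22.5% and 16.2% of all genes. Without Prep-/- M0 replicate 3, 2 were higher in M0 and 1 lower, and without Prep-/- M2 replicate 3, 4 were higher in M2, against 1 without Prep+/- M2 replicate 3. Mitf rose in M1 by 0.90 (SE 0.19, adjusted p = 0.0025), where Gpnmb also rose, and gave 0.21 in M0 and 0.39 in M2, neither past the test. Flcn rose in M0 by 0.88 (SE 0.17, adjusted p = 4.86e-04), Fnip2 rose in M2 by 0.89 (SE 0.21, adjusted p = 0.00466), and both proteins act in the complex that holds TFE factors in check. Adam10, a protease that sheds the GPNMB ectodomain, fell in M0 by -0.72 (SE 0.11, adjusted p = 7.15e-05), and the proteoglycan Sdc4, a GPNMB receptor, fell in M1 by -0.79 (SE 0.17, adjusted p = 0.00223).

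Among the 20 tetraspanins and their partners, 19 were tested, with 3 higher and 3 lower in M0 (median 0.05), 1 and 1 in M1 (-0.15) and 2 and 3 in M2 (0.09), or 2 and 5 without Prep-/- M2 replicate 3. With all libraries, 31.6% were called in M0, 10.5% in M1 and 26.3% in M2, against 32.6%, 22.5% and 16.2% of all genes. Cd63, a tetraspanin of late endosomes, rose in M0 (0.94, SE 0.20, adjusted p = 0.00109) and M2 (0.92, SE 0.20, adjusted p = 0.00315), and Cd81, a close relative of Cd9, fell in M0 (-0.73, SE 0.13, adjusted p = 2.78e-04) and M2 (-0.97, SE 0.13, adjusted p = 8.49e-05), where Cd9 rose. Cd36, a scavenger receptor, fell in M0 by -1.42 (SE 0.37, adjusted p = 0.00462). Tspan13 rose in M1 by 1.70 (SE 0.22, adjusted p = 7.94e-05) and Tspan5 in M2 by 0.98 (SE 0.12, adjusted p = 2.74e-05). Igsf8, a direct partner of CD9, fell in M1 by -0.71 (SE 0.14, adjusted p = 0.00133), and Ptgfrn, another, fell in M2 by -1.09 (SE 0.27, adjusted p = 0.00854).

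The 25 lipid-associated and scar-associated macrophage genes, the company in which Gpnmb, Spp1 and Cd9 are usually named, were all tested and none of the 7 genes is among them. In M2, 12 were higher and 0 lower in Prep-/- BMDMs, which is 48.0% against the 16.2% of all genes, with a median of 0.61, or 0.63 without Apoc2, which had at most 3 counts in each Prep+/- M2 library. Ctsb and Ctsd, 2 of the 12, were chosen by the study on these samples. Ctsd was just over the fold limit at 0.586, and under it without Prep-/- M2 replicate 3 (0.555, adjusted p = 0.0146 by edgeR). The list as a whole was chosen with earlier results of these data known. Neither the direction of these 2 genes nor the count over the list is therefore independent evidence. In M0, 8 were higher and 1 lower (median 0.30), and in M1 6 were higher and 0 lower (median 0.09). Counted in either direction, the shares called in M0 and M1 were a little above the 32.6% and 22.5% of all genes. Beside the counts of 0 lower genes by edgeR, an unadjusted p under 0.05 gave 0 in M2 and 3 in M1, and DESeq2 called 0 in both. Without Prep-/- M2 replicate 3, 11 were higher in M2 and 2 lower, Lpl at -1.65 and Cd36 at -0.87, against -0.01 and 0.06 with all libraries (named after their values were seen), and without Prep+/- M2 replicate 3, 10 were higher and 0 lower. The lipid-binding proteins led: Fabp4 rose by 2.54 (SE 0.27, adjusted p = 1.49e-05) in M1 and 1.95 (SE 0.26, adjusted p = 6.3e-05) in M2, and Fabp5 by 1.94 (SE 0.18, adjusted p = 5.26e-06) in M1 and 1.54 (SE 0.18, adjusted p = 2.4e-05) in M2, with 0.36 (adjusted p = 0.0956) in M0. Apoe, the apolipoprotein of cholesterol efflux, rose by 2.74 (SE 0.37, adjusted p = 2.32e-05) in M0. Trem2, the lipid-sensing receptor of these cells, gave 0.25, 0.09 and 0.33 and did not pass in any state, and nor did Lpl, with -1.04, 0.49 and -0.01.

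**Figure D5:**
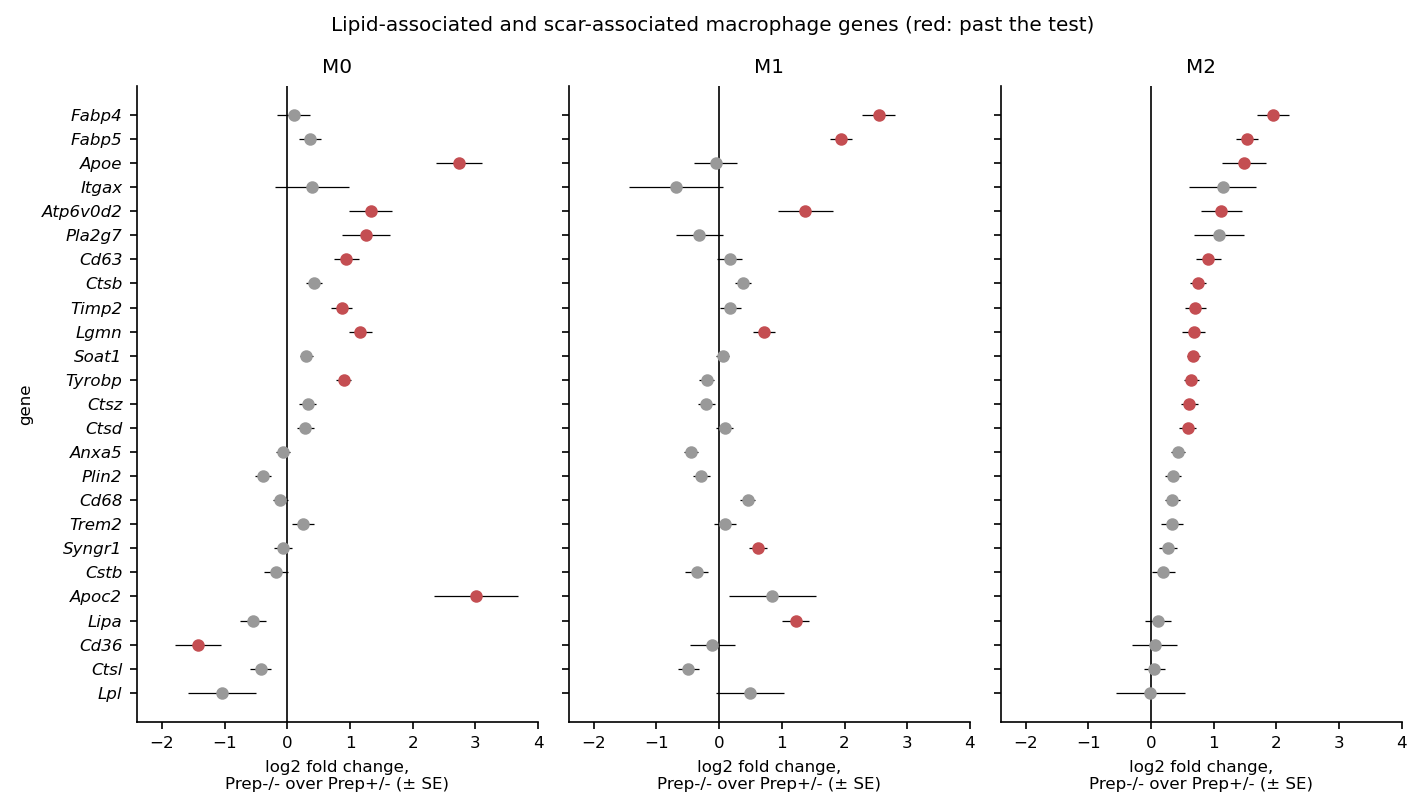
Log2 fold change of Prep-/- over Prep+/- BMDMs (points, with SE from the fit, 3 libraries per group) for the 25 lipid-associated and scar-associated macrophage genes in M0, M1 and M2, ordered by their M2 value, with changes past the test in red. In M2, 12 points are red and all of them lie to the right of 0, and the M2 point of Apoc2 is left out because that transcript had at most 3 counts per Prep+/- library.

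With the log2 CPM over the 18 libraries as the measure, the genes whose pattern was most like each of the 7 were named out of 9594 genes with a mean of at least 5 CPM, as a description of libraries that share their groups and depth. Lgals9 had the closest companions, the interferon-inducible genes Oas1g, Irf7 and Oas1a, each with r = 0.989. Lgals3 was most like Il11ra1 (0.973), Rab3il1 (0.965) and Atp6v0d2 (0.964), and Cd9 was like Phldb1 (0.965) and Fgfr1 (0.961). Lgals8 was like Npepps (0.971) and Fgl2 (0.963), and Lgals1 most like St13 (0.968), Eef1g (0.964) and C1qbp (0.944). Gpnmb was most like Tmem65 (0.934), Glce (0.918) and Zmiz1 (0.902), and Spp1 most like Folr2 (0.929), Itpr3 (0.899) and Hacd2 (0.897). Within the 7 genes, r was 0.90 between Lgals3 and Cd9, -0.92 between Lgals9 and Cd9, and 0.57 between Gpnmb and Cd9, while the r of Spp1 with the others ran from -0.49 with Lgals3 to 0.34 with Lgals9.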

How the data were processed

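RNA was prepared with a TruSeq Stranded mRNA kit and sequenced on a NovaSeq in paired-end mode. Per the labels and the submitters' processing notes, the authors trimmed reads with Trimmomatic 0.36, aligned them to GRCm39 with HISAT2 2.2.1.0 and used StringTie for quantification. They deposited 1 table of raw counts per gene for the 18 libraries, 3 in each of 6 groups. The annotation release, the strand setting and the treatment of multiply mapped reads are not given in the sources used here. All columns matched a library.

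Counts were filtered with filterByExpr, which left 12021 of 16314 genes, scaled by TMM and tested with edgeR 4.0.16 (limma 3.58.1, R 4.3.3) in 1 quasi-likelihood fit to the 18 libraries, tested on simulated data first. Calls needed an adjusted p under 0.05 (Benjamini-Hochberg over all genes tested) and a fold change over 1.5. There were 9 comparisons: 3 of genotype, 4 of stimulation and 2 interactions. Alternatives were DESeq2 1.42.0, its size factors in edgeR, no filter or a stricter filter on low counts, only the libraries compared, the replicate number as a block, no minimum fold change, and each library left out. Leaving out both Prep-/- replicates 3, and the pathway lists without either of them or without Prep+/- M2 replicate 3, were added after seeing the data. Libraries held 19068237 to 22598279 counts. Counts are of reads without molecular identifiers, so floors (3 counts) cover counting error only. No pair of libraries of 1 group looked like a repeat, the lowest chi-square per degree of freedom being 9.50 over 18 pairs.

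The members and lists were chosen with earlier results of these data known. Named genes are the 7 members, Prep, 11 fixed partner genes, and in each of 6 pathway lists the called gene with the largest rise and the largest fall in each genotype comparison among genes with at least 5 CPM in 1 group, plus the 3 genes most correlated with each member, of which 1 for Cd9 and 1 for Lgals8 are not reported here. A set of 11 marker lists was summed per library. Positions and exon lengths came from the GENCODE annotation of GRCm39, in which 647 symbols of the table had no match (all 7 members had 1), and near copies were sought with BLAST+ 2.17.0.

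Replicate numbers were checked for pairing by the correlation of same-numbered libraries' deviations from their group means. All 3 pairs were over 0.1 for the genotypes in M2 (0.249, 0.255 and 0.462) and for M1 against M0 in Prep-/- BMDMs (0.201, 0.169 and 0.259), and not in the 5 other comparisons.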

Additional observations from a re-analysis of the deposited data

Results flagged for a closer look

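The effect of a stimulus differed between the genotypes, by the interaction test of edgeR's fit to all 18 libraries, for the following genes, as the log2 change in Prep-/- minus that in Prep+/- BMDMs. With LPS the difference was 0.92 (SE 0.24, adjusted p = 0.0111) for Gpnmb, 2.03 (SE 0.54, adjusted p = 0.0118) for Spp1 and -0.69 (SE 0.18, adjusted p = 0.00987) for Lgals9. With IL-4 and IL-13 it was 0.96 (SE 0.24, adjusted p = 0.0207) for Gpnmb, -0.87 (SE 0.18, adjusted p = 0.00722) for Lgals9 and 1.65 (SE 0.25, adjusted p = 0.00105) for Cd9. All these differences share the M0 libraries, so they are not independent of each other.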

How the results depend on the processing

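Of the members' log2 fold changes under the alternatives tried, 805 of 854 stayed on their side of the threshold, 28 fell short of a call and 21 gained one. A called value never changed sign, but 24 of the 805, none of them called, did, at adjusted p of 0.532 or more. Of these, 6 did so without Prep-/- M0 replicate 3. For the knockout effect in M1, where 2 members were called, the count was 1 with no filter on low counts, 4 with no minimum fold change and 1 to 4 with each library left out. For the interaction with IL-4 and IL-13, where 3 were called, it was 2 to 5 with each library left out, 5 being without Prep-/- M0 replicate 3, and 5 without that library and Prep-/- M2 replicate 3. The cause was not tested.

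The replicate block was fitted to only the libraries compared. Gpnmb lost its call for M2 against M0 in Prep-/- BMDMs with the block (0.87, adjusted p = 0.0584, against 0.0374 in those libraries with no block) and for the interaction with IL-4 and IL-13 (0.94, 0.0572 against 0.0497). Lgals1 lost its call for the knockout in M0 both with the block (-0.64, adjusted p = 0.119) and with no block (0.0781), and Cd9 gained one in M1 in both fits (-0.59, adjusted p = 0.00497, and -0.60, 0.00414). Spp1 lost its call for M1 against M0 in Prep-/- BMDMs with no block (0.96, adjusted p = 0.061) and had it with the block (1.11, 0.00729). No other call of a member differed in these 2 fits.

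Over all genes, calls for M2 against M0 in Prep-/- BMDMs were 3636, then 2578 in only the libraries compared and 2341 there with the block. For the interaction with IL-4 and IL-13 they were 1041, 562 and 669. With no minimum fold change, the knockout calls were 4370 against 2700 (M1) and 2967 against 1947 (M2).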

Other observations

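Markers of other cell types were low in these cultures, apart from the osteoclast and fusion markers given above, which were highest in M2. The fibroblast and stromal markers summed to at most 21.1 CPM in any library, and to 5.75 to 17.9 CPM in Prep-/- M1. Further exceptions differed between the genotypes in M0. The 7 granulocyte precursor markers summed to 35.9 to 83.8 CPM in Prep-/- M0 against 17.2 to 22.2 CPM in Prep+/- M0 libraries. Most of this lay in Ngp (mean 28.2 against 10.8 CPM) and Ltf (18.3 against 6.28 CPM), while Mpo stood at 0.52 against 0.56 CPM and Elane at 0.31 against 0.27 CPM. The granulocyte sums were 17.4 to 24.3 CPM against 22.4 to 39.0 CPM in M1, and 14.1 to 22.4 CPM against 10.6 to 12.6 CPM in M2. Cd4, which made up the T cell sum, stood at 7.84 to 29.6 CPM in Prep-/- M0 and 0.75 to 0.96 CPM in Prep+/- M0 libraries. The B cell sum was 8.66 to 11.5 CPM against 3.01 to 4.79 CPM, and in Prep-/- M0 it was Cd79b alone (mean 10.4 against 3.90 CPM). The 2 other B cell markers in the table, Cd79a and Ms4a1, were at 0 in Prep-/- M0 against means of 0.04 and 0.01 CPM in Prep+/- M0. The osteoblast markers summed to at most 6.44 CPM in any library, the dendritic cell markers to at most 2.64 CPM, the erythroid markers to at most 0.18 CPM and the mast cell and basophil markers to at most 0.08 CPM. The part of these markers in the results was not tested.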
